A study of Homo sapiens with 60 samples.

Results

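High doses of 2 herbal extracts, of licorice root (Glycyrrhizae Radix) and of ginseng (Panax Ginseng), were compared directly in the human colorectal adenocarcinoma line HT29. The 6 libraries, of 60 in the series, are those the labels give as Glycyrrhizae Radix, high dose, and as Panax Ginseng, high dose, in the same sample set, with 3 libraries for each extract. Both are 70% ethanol extracts of dried plant material, and cells were exposed for 24 h, at 350 µg/mL for Glycyrrhiza and at 500 µg/mL for Ginseng. By the dose rule in the series text, an extract whose IC20 (the concentration that inhibits by 20%) lay under 500 µg/mL was given at that IC20, so the 2 high doses differ both in mass and in how they were set. The same set holds 3 libraries each of Glycyrrhiza at 70 and 14 µg/mL and of Ginseng at 100 and 20 µg/mL. The vehicle group, labelled 0.1% DMSO although the series text gives 2%, has 3 libraries and carries no set number, so its levels are given beside the others without a test. HT29 is 1 cell line. Whether the 3 libraries of a group are separate cultures is not stated, and p-values here cover the spread between libraries, which may be technical.

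Several response programmes that cells use against plant compounds and nutrient or folding stress are described first, since the differences below are ordered by them. In the integrated stress response, kinases that sense amino acid shortage, unfolded protein or other stress phosphorylate the initiation factor eIF2, general translation falls, and the transcription factor ATF4 is translated more and switches on amino acid synthesis, transport and, with DDIT3 (CHOP), pro-death genes. The aryl hydrocarbon receptor (AhR) binds many planar plant molecules and drives CYP1A1 and CYP1B1, whereas NRF2 is released from KEAP1 by electrophiles and drives glutathione and thioredoxin genes. The liver X receptors (LXR) are activated by oxysterols and drive sterol exporters such as ABCG1 and ABCA1. The colon epithelium uses all of these at its contact surface with food.

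The 6 libraries held 20.03 to 25.07 M counts. Mitochondrial genes took 7.89% to 8.74% of the counts with Glycyrrhiza and 7.67% to 8.09% with Ginseng. All 13 colon epithelium markers were measured, with a summed counts-per-million level (CPM, scaled to library size) of 14138 to 14231 with Glycyrrhiza and 11942 to 13615 CPM with Ginseng. Markers of other cell types were low or partly absent: of the fibroblast list only COL1A1 and LUM passed the low-count filter (2.99 to 3.9 against 1.49 to 2.6 CPM), of the leukocyte list CD14, ITGAM and CD68 (13.8 to 15.6 against 13 to 16 CPM), and of the endothelial list PECAM1 (0.974 to 1.73 against 1.51 to 2.43 CPM). Of the hepatocyte list, TTR and SERPINA1 passed, which summed to 313 to 349 CPM with Glycyrrhiza and 340 to 363 CPM with Ginseng. The part of these shifts in the results was not tested.

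At the high doses, stress-response and amino acid genes were higher with Glycyrrhiza, and replication, ribosome biogenesis and stem-cell genes were lower. Of 16445 genes tested, 3830 (23.3%) passed an adjusted p of 0.05 in edgeR's quasi-likelihood test, 2189 higher with Glycyrrhiza (13.3%) and 1641 lower (9.98%). Differences are given as Glycyrrhiza minus Ginseng on the log2 scale with the standard error. Most were small, with a median absolute size of 0.27 among the genes that passed, while 150 genes were at least 2 times higher and 81 at least 2 times lower. At 4 times or more there were 18 genes higher and 14 lower. The 3 and 3 libraries did not overlap for 3605 of the 3830 genes, against 5701 (34.7%) of all genes tested.

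**Figure D1:**
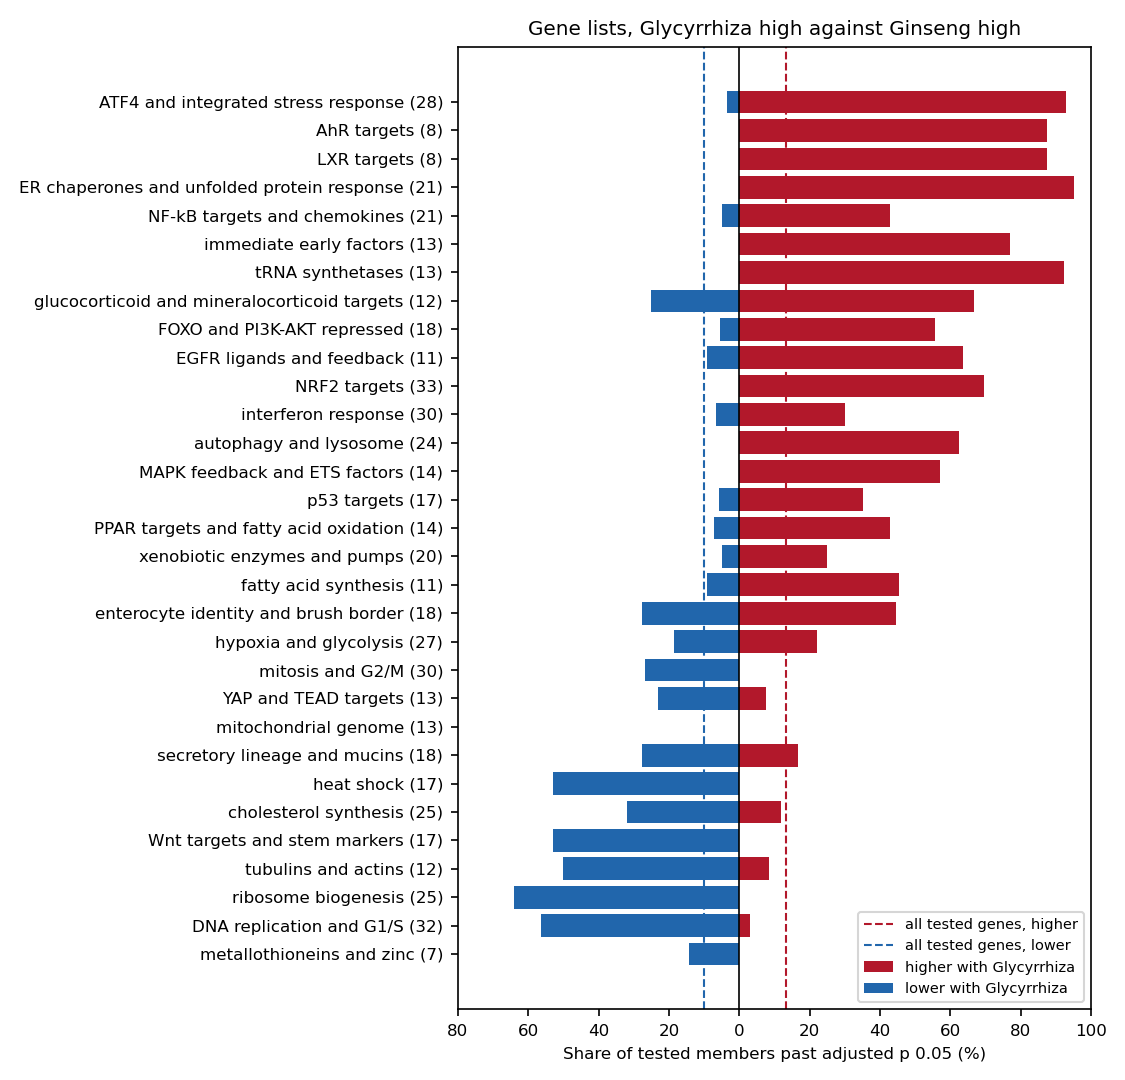
Share of the tested members of each of 31 gene lists (number tested in brackets) that were higher (right) or lower (left) with Glycyrrhiza at an adjusted p of 0.05, ordered by the list's median difference. Dashed lines mark the shares over all tested genes, 13.3% and 9.98%; the integrated stress response list has 26 of 28 members higher, and the ribosome biogenesis list 16 of 25 lower.

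Genes of the integrated stress response had the largest median difference of the 31 lists, which were chosen with earlier results of these data known. Of 28 list members tested, 26 were higher with Glycyrrhiza and 1 was lower, with a median difference of 1.14, where the median over all tested genes was -0.01. To show the promoter element through which this response is known to read amino acid supply, the 250 bases before each RefSeq start (GRCh38.p14) were searched on both strands for TGATGNAA, the core shared by C/EBP-ATF elements. Among all tested genes with a promoter in the table it was found in 158 of 11184 (1.41%), and among the higher ones in 37 of 1709 (2.17%). In the list it was found in 3 of the 22 higher members that have a promoter (13.6%). The shares were 2 of 11 for higher tRNA synthetase genes (18.2%) and 1 of 19 for higher endoplasmic reticulum genes (5.26%). These list shares rest on only 3, 2 and 1 matches. These 6 matches are shown 5′ to 3′ along the gene's strand, with the 8 matched bases in capitals and 11 bases on each side. The IARS1 window ends at the start site.
ASNS (chr7:97872458-97872487, minus strand): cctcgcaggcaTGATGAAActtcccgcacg
CHAC1 (chr15:40953251-40953280, plus strand): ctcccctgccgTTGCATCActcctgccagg
ATF3 (chr1:212565205-212565234, plus strand): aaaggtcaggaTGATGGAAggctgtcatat
AARS1 (chr16:70289675-70289704, minus strand): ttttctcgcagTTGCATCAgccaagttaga
IARS1 (chr9:92293698-92293721, minus strand): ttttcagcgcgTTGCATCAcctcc
HERPUD1 (chr16:56931955-56931984, plus strand): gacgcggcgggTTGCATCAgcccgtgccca
CHAC1, AARS1, IARS1 and HERPUD1 carry the same 8 letters in reverse orientation, and ASNS and ATF3 carry the forward form. The GENCODE spans of ASNS and CHAC1 reach across their windows, since those annotations start further upstream. A match describes these letters only, and binding was not measured.

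Among amino acid enzymes and carriers, ASNS (chr7:97852118-97872542), asparagine synthetase, stood at 215, 204 and 202 CPM in the 3 Glycyrrhiza libraries and at 53.7, 51.9 and 51.1 CPM with Ginseng. The vehicle mean was 52.3 CPM, so every Glycyrrhiza library lay about 4 times above both other groups, and the difference from Ginseng was 1.99 ± 0.05 (adjusted p = 1.1e-34). SLC6A9 (chr1:43991500-44031467), the glycine transporter GLYT1, read 8.55, 9.38 and 8.88 CPM against 0.629, 0.706 and 0.696 CPM, a difference of 3.72 ± 0.23 (adjusted p = 3.9e-18). Its vehicle mean was 0.868 CPM. PHGDH and PSAT1, the first enzymes of serine synthesis, were higher by 1.17 and 1.12, and PSPH, which completes that pathway, by 0.36. The mitochondrial folate enzymes MTHFD2 and SHMT2 were higher by 0.70 and 0.60, and CTH, which makes cysteine from cystathionine, by 1.38. The carriers SLC7A5 and SLC3A2, which together form the LAT1 exchanger, were higher by 0.64 and 0.74, and the cationic amino acid carrier SLC7A1 by 0.34.

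Regulators of the response followed. ATF4 itself stood at 400, 418 and 447 CPM against 255, 260 and 262 CPM (0.70 ± 0.05, adjusted p = 2.3e-15). DDIT3 (chr12:57516588-57521737), the CHOP factor, read 20.4, 18.4 and 21.3 CPM with Glycyrrhiza and 5.58, 4.49 and 4.82 CPM with Ginseng (2.01 ± 0.11, adjusted p = 1.9e-19). CHAC1 (chr15:40952962-40956519), which degrades glutathione and is a target of ATF4 and CHOP, read 18.5, 21.3 and 21 CPM against 2.89, 2.72 and 2.79 CPM (2.85 ± 0.13, adjusted p = 4.2e-23). In each of these genes the lowest Glycyrrhiza library was above the highest Ginseng library, and the Ginseng levels lay near the vehicle means of 5.46 CPM for DDIT3 and 2.7 CPM for CHAC1. TRIB3, a pseudokinase that restrains the response, was higher by 1.69 ± 0.06 and PPP1R15A, the eIF2 phosphatase subunit that ends it, by 0.79. DDIT4, an mTORC1 inhibitor, reached 57.3, 64.1 and 60.5 CPM against 14.2, 11.9 and 13.4 CPM (2.20 ± 0.08), and SESN2, another restraint on mTORC1, was higher by 1.12. NUPR1, a small stress-induced chromatin protein, was low in all libraries, at 1.54 to 1.86 CPM against 0.249 to 0.353 CPM. GDF15, a secreted stress cytokine, read 140, 149 and 152 CPM against 48.2, 45.8 and 45 CPM (1.67 ± 0.07).

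The list had 2 members that did not follow. ATF5, a relative of ATF4 that is also translated under stress, read 52.6, 50.2 and 53 CPM with Glycyrrhiza and 74.6, 83.4 and 79 CPM with Ginseng, and was lower by 0.60 on the log2 scale (SE 0.09, adjusted p = 5.1e-07). ALDH1L2, a mitochondrial folate enzyme, stood at 0.39 to 0.718 CPM against 0.555 to 0.647 CPM and did not pass the test (adjusted p = 0.63).

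**Figure D2:**
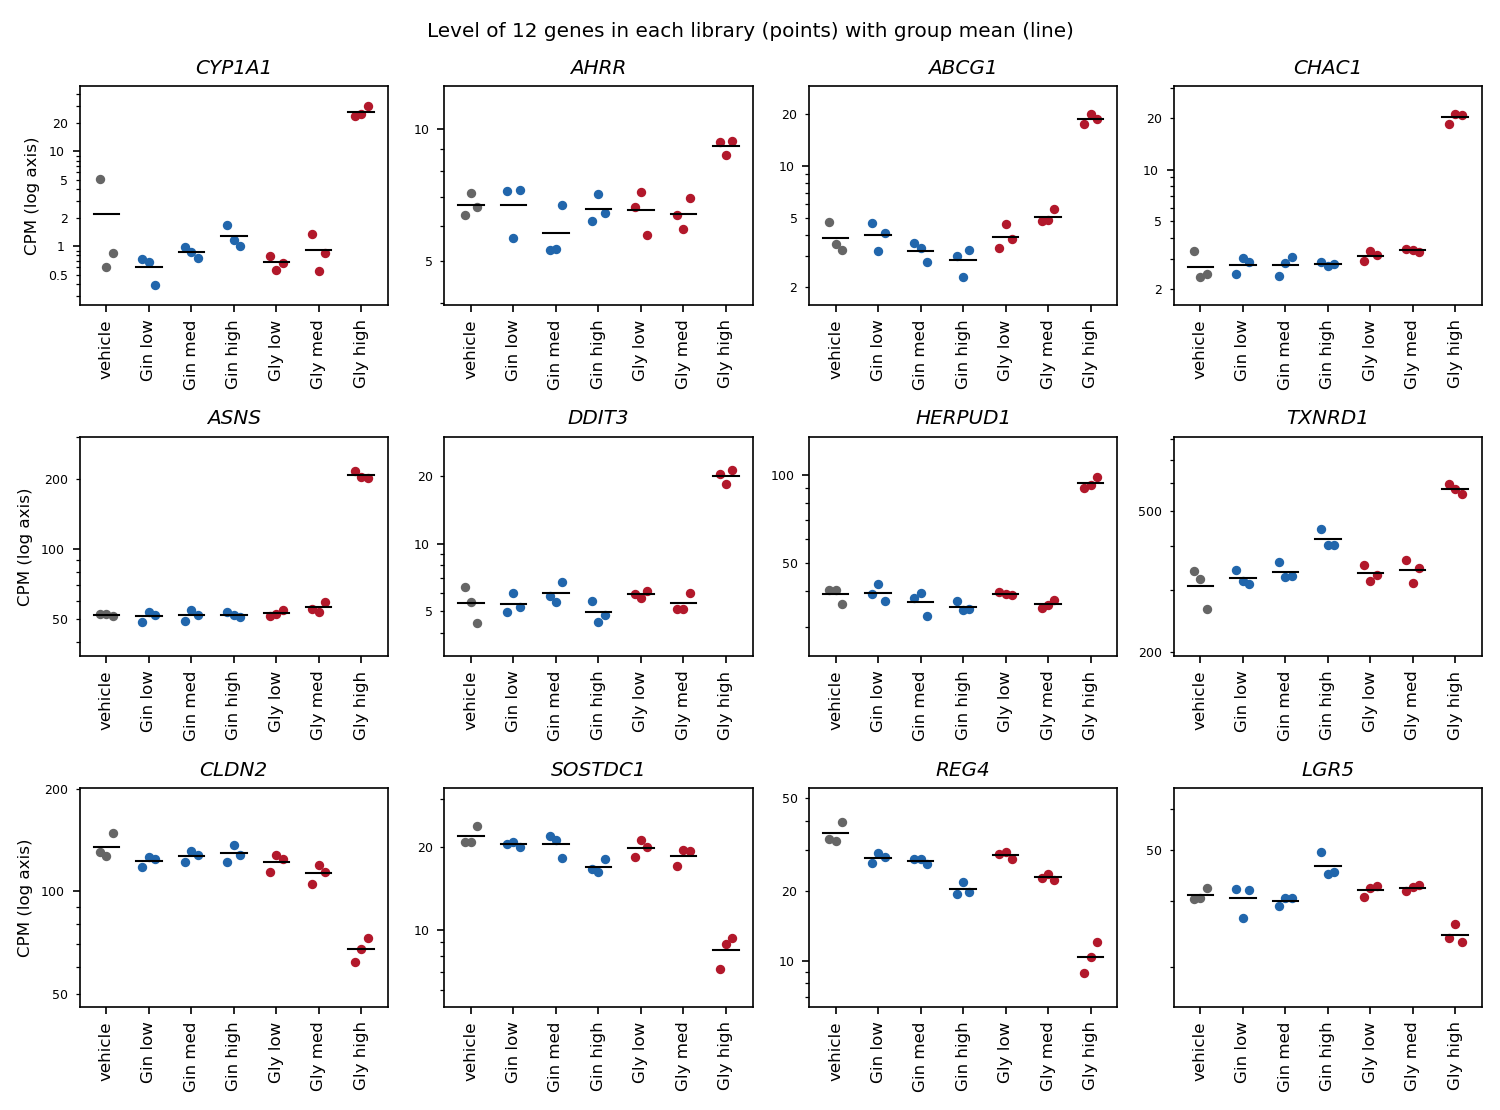
CPM of 12 genes in each library on a log axis, for vehicle (grey), Ginseng (blue) and Glycyrrhiza (red) at low, medium and high dose; points are libraries and lines are the means of 3. CYP1A1, ABCG1, CHAC1, ASNS, DDIT3 and HERPUD1 stand apart in the high-dose Glycyrrhiza libraries, while LGR5 is above the low-dose level with Ginseng and below it with Glycyrrhiza.

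Charging enzymes for transfer RNA and the folding machinery of the endoplasmic reticulum moved with the same extract. Of 13 genes of the tRNA synthetase list, 12 were higher with Glycyrrhiza (median 0.34). They were led by WARS1 (0.85 ± 0.05), SARS1 (0.70), GARS1 (0.67) and AARS1 (0.62), the enzymes for tryptophan, serine, glycine and alanine. LARS1, for leucine, differed by 0.07 and did not pass. Of 21 endoplasmic reticulum and unfolded protein response genes, 20 were higher (median 0.48). HERPUD1 (chr16:56932048-56944863), which supports degradation of misfolded proteins at that membrane, read 90.3, 92.4 and 98 CPM against 36.9, 34.3 and 34.6 CPM (1.41 ± 0.05, adjusted p = 1e-25). The co-chaperone DNAJB9 was higher by 1.29 ± 0.07, the stress sensor kinase ERN1 (IRE1) by 0.86 and the main luminal chaperone HSPA5 (BiP) by 0.72 ± 0.04, at 797 to 882 CPM against 485 to 529 CPM. XBP1, whose mRNA ERN1 splices, was higher by 0.52, although the gene count does not separate the spliced form. ATF6, the third sensor arm, differed by 0.12 (adjusted p = 0.053).

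The top rise by size was in a target of the aryl hydrocarbon receptor. CYP1A1 (chr15:74719542-74725610), the oxidase by which the receptor is best known, read 23.7, 24.8 and 30.2 CPM with Glycyrrhiza and 1.68, 1.16 and 0.995 CPM with Ginseng. The vehicle libraries read 5.07, 0.611 and 0.846 CPM, and the difference between extracts was 4.33 ± 0.30 (adjusted p = 3.9e-16), ranked among genes at 5 CPM or more in the higher group. Of 8 receptor targets tested, 7 were higher with Glycyrrhiza (median 0.55). CYP1B1, a sister oxidase, stood at 131, 119 and 128 CPM against 56.5, 53.2 and 57.3 CPM (1.18 ± 0.08), TIPARP, a feedback ADP-ribosyltransferase, was higher by 0.62 ± 0.05 and AHRR, the receptor's repressor, by 0.48 ± 0.11. UGT1A6, a glucuronosyltransferase, differed by 0.02 (adjusted p = 0.84). Its reads may be shared with other members of the UGT1A locus, which have common exons. In the promoters, the receptor's core GCGTG, read on both strands, was present in 5 of the 6 tested members with a promoter in the table, where 44.4% of tested promoters hold it. They were AHRR, CYP1A1, NFE2L2 and TIPARP, which were higher, and UGT1A6, which did not pass.

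Among 20 other xenobiotic enzymes and pumps, 5 were higher and 1 lower (median 0.11). That is 30% of the list, against 23.3% of all genes tested. CYP2B6, a target of the receptors CAR and PXR, read 6.45, 7.12 and 7.58 CPM against 3.36, 4.19 and 4.43 CPM (0.83 ± 0.12), and CYP3A5 was higher by 0.58. The efflux pumps ABCB1 and ABCG2 differed by -0.07 and 0.11 without passing the test. UGT2B15 was the lower member and rests on 0.0411 to 0.0513 CPM against 0.168 to 0.353 CPM, which are few counts.

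NRF2 targets rose with dose in both extracts and further with Glycyrrhiza. Of 33 tested, 31 rose from the low to the high dose of Glycyrrhiza, where 24.9% of all genes passed in either direction, and 23 rose with Ginseng, where 2.52% of all genes passed. Between the high doses 23 were higher with Glycyrrhiza and none was lower (median 0.24). SLC7A11, the cystine carrier, read 440, 435 and 414 CPM with Glycyrrhiza and 196, 162 and 202 CPM with Ginseng (1.20 ± 0.07, adjusted p = 6e-20). Its vehicle mean was 149 CPM. It is also a target of ATF4, as is the list member SQSTM1, an autophagy adaptor, at 924 to 958 CPM against 417 to 487 CPM (1.06 ± 0.06). HMOX1, haem oxygenase, was higher by 1.01 ± 0.08, and the glutathione synthesis subunits GCLC and GCLM by 0.50 and 0.46.

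The aldo-keto reductases AKR1B10 and AKR1C2 rose with dose in both extracts. AKR1B10 rose by 1.26 with Glycyrrhiza dose and by 1.00 with Ginseng dose, and differed by 0.36 between the high doses. AKR1C2 rose by 1.48 and 1.24 and differed by 0.39, with counts that may be shared between AKR1C1, AKR1C2 and AKR1C3, which are near-identical. PIR and CBR1 differed by -0.02 and -0.01 between the high doses and did not pass, while both rose with Ginseng dose, by 0.39 and 0.25. NQO1, the quinone reductase of the list, stood at 763, 742 and 740 CPM against 626, 590 and 598 CPM (0.31 ± 0.04). The antioxidant core TGACNNNGC was found in 6 of 24 tested members with a promoter (25%), against 12.2% of tested promoters. Of these, GCLM, PGD and TXNRD1 were among the 14 higher members with a promoter, and CBR1, GPX2 and ME1 were not higher.

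Sterol and lipid genes divided by pathway. Of 8 LXR targets, 7 were higher with Glycyrrhiza (median 0.52), led by the sterol exporter ABCG1 (chr21:42199689-42297244) at 17.6, 20.1 and 18.7 CPM against 3.02, 2.27 and 3.28 CPM (2.71 ± 0.13, adjusted p = 3.7e-22). ABCA1, the partner exporter, was higher by 0.59 ± 0.13, MYLIP, which removes the LDL receptor, by 0.51, and SREBF1, the lipogenic factor, by 0.54 ± 0.05. In cholesterol synthesis the balance was opposite, with 8 of 25 genes lower and 3 higher (median -0.14). The median of this list was already -0.15 at the medium doses. Where the change with dose was tested between the extracts, 2 members were more positive with Glycyrrhiza and none more negative. HMGCS1, an early enzyme, read 215, 193 and 195 CPM against 297, 264 and 273 CPM (-0.47 ± 0.10, adjusted p = 0.00025), and MVK was lower by 0.41 on the log2 scale (-0.41 ± 0.09).

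Of 11 fatty acid synthesis genes, 5 were higher and 1 lower. The desaturase SCD stood at 2773, 2892 and 2710 CPM against 1815, 1805 and 1751 CPM (0.64 ± 0.04), whereas FASN differed by 0.05 (adjusted p = 0.54) and ACLY by -0.24. Among 14 PPAR targets and fatty acid oxidation genes, 6 were higher and 1 lower. PDK4, which turns cells from glucose to fat oxidation, was higher by 0.81 ± 0.10 and the lipid droplet coat PLIN2 by 0.70.

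Autophagy genes and genes held down by AKT signalling were mostly higher with Glycyrrhiza. In the autophagy and lysosome list 15 of 24 were higher and none lower (median 0.23), led by WIPI1, a phagophore protein (11.2, 12.8 and 12.9 CPM against 4.32, 5.3 and 4.72 CPM, 1.36 ± 0.12). GABARAPL1, a vesicle-coating ubiquitin-like protein, was higher by 0.94 and the initiating kinase ULK1 by 0.67. Of 18 genes that FOXO factors activate or AKT signalling represses, 10 were higher and 1 lower, with KLHL24 at 0.80 ± 0.08 and TXNIP, a glucose-uptake inhibitor, at 0.79 ± 0.06. SESN1 was the lower one (-0.47 ± 0.07).

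Of 17 p53 targets, 6 were higher and 1 lower. The cell-cycle inhibitor CDKN1A (p21) read 29.1, 29.4 and 28.6 CPM against 13.3, 14.1 and 11.1 CPM (1.17 ± 0.08, adjusted p = 6.8e-16), and BBC3 (PUMA), a death protein, was higher by 0.77 ± 0.11. GDF15, named above, and SESN1 are also on this list. MDM2, the classic p53 target, differed by -0.06 (adjusted p = 0.53), and BAX by -0.12 without passing. HT29 is known to carry mutant p53.

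Growth-factor feedback genes were higher too. Of 13 immediate early genes, 10 were higher and none lower (median 0.40), with ATF3 at 7.52, 6.61 and 8.79 CPM against 2.14, 2.67 and 2.49 CPM (1.66 ± 0.12) and FOSB at 1.21 ± 0.13. ATF3 is also on the integrated stress response list. MYC differed by 0.03 (adjusted p = 0.7). Of 14 MAPK feedback and ETS genes, 8 were higher and none lower, led by the ERK phosphatase DUSP5 (12.5, 12.1 and 12.8 CPM against 4.28, 4.14 and 4.72 CPM, 1.51 ± 0.12). DUSP6, SPRY2 and SPRY4, other feedback inhibitors, did not pass. Of 11 EGFR ligand and feedback genes 7 were higher, including the ligands HBEGF (0.87 ± 0.09), EREG (0.64 ± 0.06) and AREG (0.45), and the receptor antagonist LRIG1 was lower (-0.61 ± 0.06).

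Corticosteroid-responsive genes are of interest for Glycyrrhiza, since glycyrrhetinic acid from licorice is a known inhibitor of the cortisol-inactivating enzyme that HSD11B2 encodes. Inhibition of that enzyme was not tested here. HSD11B2 (chr16:67430652-67437553) mRNA was lower with Glycyrrhiza, at 5.71, 5.13 and 4.89 CPM against 7.09, 8.53 and 7.41 CPM (-0.54 ± 0.10, adjusted p = 6.2e-05), with a vehicle mean of 8.61 CPM. Of 12 glucocorticoid and mineralocorticoid genes, 8 were higher and 3 lower (median 0.32). TSC22D3 (GILZ), an early glucocorticoid target, read 28.9, 28.4 and 28.1 CPM against 18, 19.7 and 18.1 CPM (0.62 ± 0.06), KLF15 was higher by 0.68 and the sodium channel subunit SCNN1A by 0.38. FKBP5, a sensitive glucocorticoid target, was lower (-0.15 ± 0.05, adjusted p = 0.043), as was the mineralocorticoid receptor NR3C2 (-0.31 ± 0.11, adjusted p = 0.038), so the list did not move one way.

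In both inflammatory lists more members were higher than lower with Glycyrrhiza, and most members did not pass. Of 21 NF-kB targets and chemokines, 9 were higher and 1 lower (median 0.47). BIRC3, an apoptosis inhibitor, was higher by 0.69 ± 0.11, the iron-binding LCN2 by 0.64 ± 0.09 and the subunit NFKB2 by 0.63 ± 0.06, while NFKB1 was lower by 0.14 on the log2 scale. The chemokines CXCL8 (6.87 to 9.14 against 7.01 to 8.47 CPM) and CXCL1 (1.23 to 2.21 against 2.12 to 2.47 CPM) overlapped between the extracts and did not pass. Of 30 interferon response genes, 9 were higher and 2 lower, with OAS1 at 0.61 ± 0.09 and IRF1 at 0.54 ± 0.05. IFI44 was among the lower members (-0.53 ± 0.16), and 19 did not pass. From the low to the high dose, 5 interferon genes rose and 8 fell with Glycyrrhiza (median -0.06). With Ginseng dose none rose and 2 fell (median -0.23). Over all tested genes, 14% rose and 10.9% fell with Glycyrrhiza dose, and 1.29% rose and 1.23% fell with Ginseng dose.

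Epithelial identity genes also separated. CLDN2 (chrX:106900164-106930861), a claudin that opens tight junctions to cations, read 62, 67.8 and 72.7 CPM with Glycyrrhiza and 122, 137 and 128 CPM with Ginseng (-0.93 ± 0.07, adjusted p = 4.8e-15), and its vehicle mean was 135 CPM. In the secretory and mucin list 5 of 18 were lower and 3 higher. REG4, a goblet and enteroendocrine cell product, stood at 8.88, 10.4 and 12 CPM against 19.3, 21.8 and 19.7 CPM (-0.96 ± 0.09), below a vehicle mean of 35.3 CPM. ATOH1, the secretory lineage factor, was lower (-0.92 ± 0.19) at 1.54 to 1.64 CPM against 2.68 to 3.53 CPM, and MUC13 by 0.54 on the log2 scale. The membrane mucin MUC17 was higher, at 20.2, 19.9 and 19.1 CPM against 9.19, 9.38 and 9.15 CPM (1.10 ± 0.12), and MUC2, the goblet cell mucin, did not pass (adjusted p = 0.36).

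Of 18 enterocyte genes 8 were higher and 5 lower. KRT20, a surface keratin, was higher at 497 to 512 CPM against 327 to 344 CPM (0.58 ± 0.06), as were KLF4 (0.84 ± 0.09) and CEACAM5 (0.63 ± 0.11). The hepatocyte nuclear factor HNF4A (-0.49 ± 0.07) and the brush border protein VIL1 (-0.42 ± 0.04) were lower. Of 17 Wnt targets and stem markers, 9 were lower and none higher (median -0.14). EPHB3, a crypt-positioning receptor, read 13.1, 12.5 and 14.2 CPM against 22.1, 24.3 and 23 CPM (-0.80 ± 0.09), and the stem cell receptor LGR5 read 34.1, 36.2 and 33.4 CPM against 49.5, 45.1 and 45.5 CPM (-0.44 ± 0.06). AXIN2, the general Wnt feedback gene, was lower by 0.14 on the log2 scale (SE 0.04). MYC, CCND1 and SOX9 did not pass.

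Genes of DNA replication and ribosome building, and fewer of mitosis, were lower with Glycyrrhiza by small amounts. Of 32 DNA replication and G1/S genes, 18 were lower and 1 was higher (median -0.16). MCM4, a helicase subunit, stood at 290, 299 and 292 CPM against 360, 375 and 360 CPM (-0.31 ± 0.04, adjusted p = 1.3e-09), CCNE2 was lower by 0.36 on the log2 scale, and the licensing factor CDT1 was the higher one (0.18 ± 0.05). Of 25 ribosome biogenesis genes, 16 were lower and none higher (median -0.15), with UTP20 at 83.3, 79 and 74.4 CPM against 107, 97.1 and 104 CPM (-0.38 ± 0.05). NCL (nucleolin) was lower by 0.30 and POLR1A, the large subunit of RNA polymerase I, by 0.25. Of 30 mitosis genes 8 were lower and none higher (median -0.07), and 22 did not pass. That is 26.7% of the list, where 23.3% of all genes tested passed and 9.98% were lower. MKI67 was at 812 to 874 CPM against 954 to 996 CPM (-0.21 ± 0.06, adjusted p = 0.01), while CDK1, PLK1 and CCNB1 did not pass.

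Heat shock and cytoskeleton genes were also lower in part. Of 17 heat shock genes, 9 were lower and none higher (median -0.12), with HSP90AA1 at 1061, 998 and 1009 CPM against 1227, 1223 and 1218 CPM (-0.26 ± 0.04). The inducible HSPA1A and HSPA1B, which are near-identical copies, did not pass. Of 12 tubulins and actins 6 were lower, ACTB among them (-0.32 ± 0.03), and 1 was higher. Of 27 hypoxia and glycolysis genes, 6 were higher and 5 lower. VEGFA, the vascular growth factor, stood at 136, 133 and 133 CPM against 66.2, 69.5 and 64.6 CPM (1.01 ± 0.04), whereas LDHA (-0.25 ± 0.04) and the hypoxia marker CA9 (-0.31 ± 0.06) were lower. None of 13 mitochondrially encoded genes passed (median -0.09). Of 7 metallothionein and zinc genes only MT1A passed (-0.96 ± 0.33), at 0.329 to 0.41 CPM against 0.605 to 0.755 CPM. Among 13 YAP and TEAD targets 3 were lower, CCN2, TEAD4 and NT5E, and AJUBA was higher. That is 30.8% of the list, against 23.3% of all genes tested. The calls of MT1A, CCN2, TEAD4, NT5E and MKI67 did not hold under every alternative tried, nor did those of UGT2B15, IFI44 and ZBTB45P1.

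Several of the most different genes belong to none of these lists. ADM2 (intermedin), a peptide hormone, read 8.88, 10.9 and 11.3 CPM with Glycyrrhiza and 1.38, 1.77 and 0.746 CPM with Ginseng (2.99 ± 0.18). AHNAK2, a giant scaffold protein, was higher by 1.88 ± 0.13, NIBAN1, a stress-responsive translation regulator, by 1.79 ± 0.12, and the fucosyltransferase FUT3, the Lewis blood group enzyme, by 1.73 ± 0.17. The noncoding IGFL2-AS1 was higher by 1.90 ± 0.12. Among the falls, NEB (nebulin) read 1.81, 2.26 and 1.69 CPM against 5.37, 4.74 and 6.56 CPM (-1.54 ± 0.15), and the membrane glycoprotein CD200 was lower by 1.38 on the log2 scale. The BMP antagonist SOSTDC1 (7.19, 8.82 and 9.31 against 16.6, 16.3 and 18.1 CPM, -1.01 ± 0.09) and the prolactin receptor PRLR (9.7, 10.8 and 12 against 21, 20.6 and 23.4 CPM) were lower, as were SLC38A11 (-1.01 ± 0.12), AKAP7 (-0.95 ± 0.12) and the noncoding RNAs LINC00261 (-1.08 ± 0.13) and HOXB-AS4 (-1.03 ± 0.23). Apparent falls of the pseudogenes ZBTB45P1 (0, 5.02 and 5.93 against 10, 14.7 and 13.3 CPM) and NPY6R are uncertain, since their reads can be shared with related genes.

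At the medium and low doses no gene passed edgeR's test between the extracts as fitted at the high doses, while other settings called some. At 70 against 100 µg/mL, 0 of 16445 genes passed (smallest adjusted p = 0.071), and 702 (4.27%) had an unadjusted p under 0.05. At 14 against 20 µg/mL, 0 passed (smallest adjusted p = 0.11), and 1075 (6.54%) had an unadjusted p under 0.05. Without the low-count filter, edgeR called 90 genes for Glycyrrhiza medium minus Ginseng medium and 145 for Glycyrrhiza low minus Ginseng low. With the replicate number as a block it called 13 at the medium doses, where the numbers paired the libraries. DESeq2 called 3 genes at the medium and 2 at the low doses. These tests had the same median standard error as at the high doses, 0.08. The integrated stress response list had a median difference of 0.01 at the medium doses and 0.02 at the low doses. ASNS differed by 0.12 ± 0.05 at the medium doses and CYP1A1 by 0.06 ± 0.44. ABCG1 read 5.1 against 3.22 CPM in the mean at the medium doses (0.65 ± 0.14, adjusted p = 0.15), the largest such difference among genes that passed at the high doses and reached 5 CPM there.

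**Figure D3:**
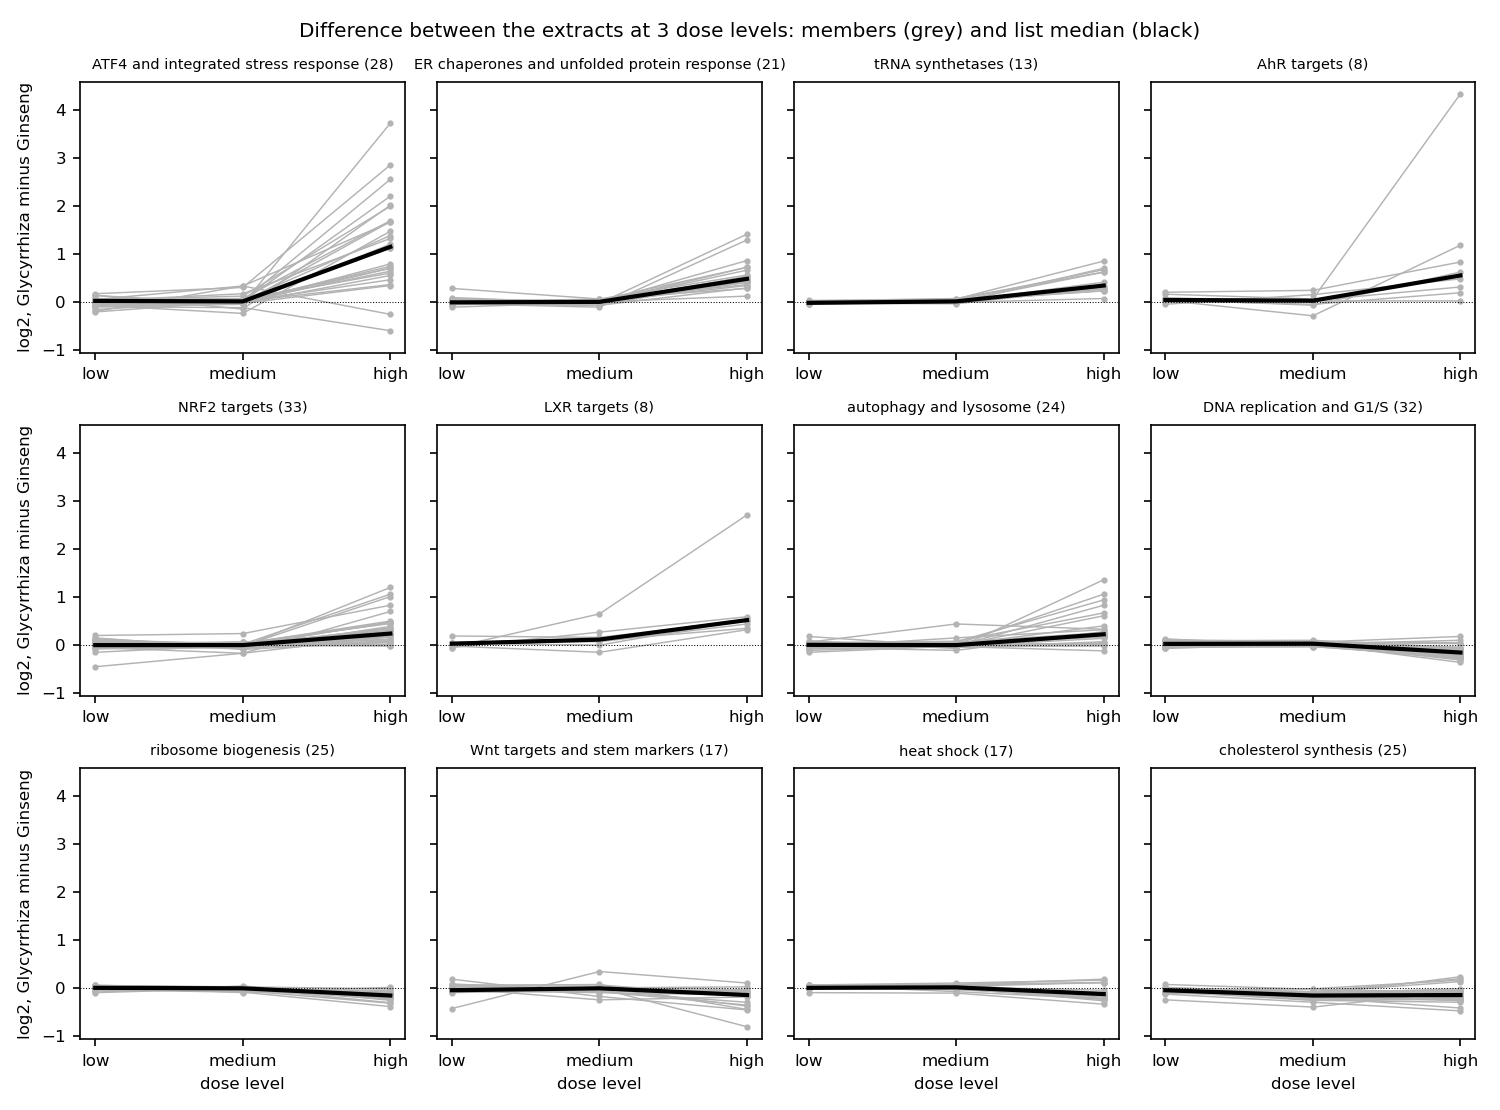
Log2 difference, Glycyrrhiza minus Ginseng, at the low, medium and high dose for the tested members (grey lines) and the median (black) of 12 gene lists. Members of most lists lie near 0 at the low and medium doses and spread at the high dose. There the medians reach 1.14 for the integrated stress response and -0.16 for DNA replication. The cholesterol synthesis median is -0.15 at the medium and -0.14 at the high doses.

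Most of the genes that changed with dose did so in Glycyrrhiza. From 14 to 350 µg/mL of Glycyrrhiza, 4096 genes changed, 2306 up and 1790 down, and from 20 to 500 µg/mL of Ginseng 415 changed (212 up and 203 down). With the replicate number as a block, which paired the Ginseng libraries, the count for Ginseng high minus low was 660. Without the block it was 205 without the first high-dose Ginseng library and 246 without the third low-dose one. Of the 28 integrated stress response genes, 26 rose and 1 fell with Glycyrrhiza dose (median 1.13), and 2 rose with Ginseng dose (median 0.01), SLC7A11 and SLC3A2. Of 21 endoplasmic reticulum genes, 20 rose with Glycyrrhiza and 5 with Ginseng, among them HSPA5 by 0.23. The change with dose differed between the extracts for 2126 genes (12.9%) in edgeR's interaction test, 1329 of them (8.08% of the genes tested) with the more positive change in Glycyrrhiza and 797 (4.85%) in Ginseng. By that test, 26 integrated stress response members had the larger rise with Glycyrrhiza, as did all but 1 of the 13 tRNA synthetase list genes, 19 of 21 endoplasmic reticulum genes and 17 of 33 NRF2 targets.

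Lower replication and ribosome genes had another composition. For comparison, 14% of all tested genes rose and 10.9% fell with Glycyrrhiza dose, and 1.29% rose and 1.23% fell with Ginseng dose. The interaction passed for 12.9% of all tested genes, and for 4.85% with the more positive change in Ginseng. Of 32 replication genes, 11 fell with Glycyrrhiza dose and 4 rose with Ginseng dose, and the interaction passed for 12. Of 25 ribosome biogenesis genes, 4 fell with Glycyrrhiza and 3 rose with Ginseng (RRP12, NOLC1 and WDR43), and the interaction passed for 8. MCM4 fell by 0.22 with Glycyrrhiza dose, and its change of 0.11 with Ginseng dose did not pass. Of 30 mitosis genes, 4 fell with Glycyrrhiza dose and none changed with Ginseng dose, and the interaction passed for 4. MKI67, NCL and POLR1A changed by -0.02, -0.12 and -0.08 with Glycyrrhiza dose and by 0.07, 0.09 and 0.09 with Ginseng dose. For these genes neither dose change passed, nor did the interaction. Of the heat shock genes, 4 rose and 3 fell with Glycyrrhiza and 4 rose with Ginseng, with FKBP4 rising by 0.18 in Ginseng (adjusted p = 0.0005). Both extracts lowered MUC13 with dose, by 0.87 on the log2 scale for Glycyrrhiza and 0.45 for Ginseng, REG4 by 1.46 and 0.45, and ATOH1 by 1.52 and 0.74.

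**Figure D4:**
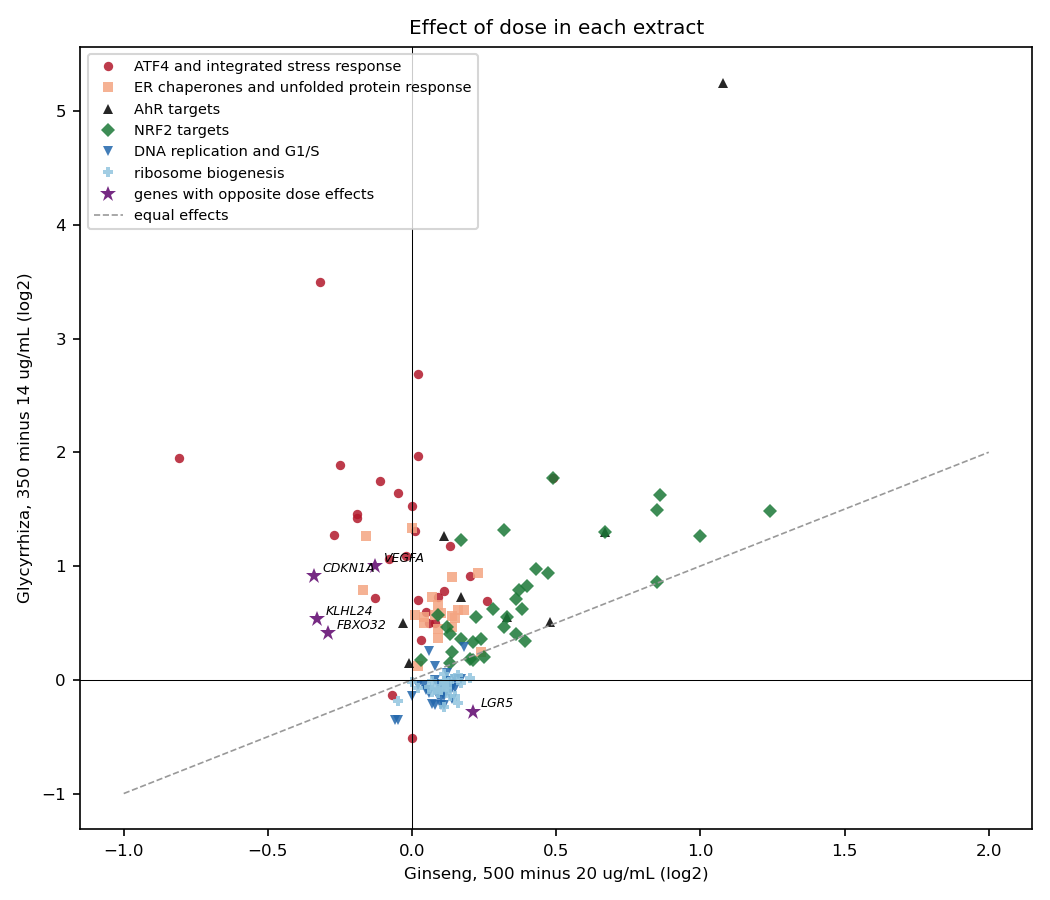
Log2 change from low to high dose in Ginseng (horizontal axis) and in Glycyrrhiza (vertical axis) for members of 6 gene lists and for 5 genes whose dose effects passed in opposite directions (stars). Integrated stress response and endoplasmic reticulum genes lie along the vertical axis, NRF2 targets rise on both axes, and CDKN1A and LGR5 lie in opposite quadrants.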

How the data were processed

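Per the labels' protocols, the strand-specific mRNA libraries were sequenced with MGI chemistry in pairs of 100 bp. The values are expected counts per gene deposited by the authors, whose submitters' processing notes name FastQC 0.11.9, Trim Galore 0.6.5, STAR 2.7.3a, RSEM 1.3.3 and hg38. For the gene annotation, the release was not given in the labels. Expected counts divide reads between near-identical copies by estimated probability, and 7.7% to 9.78% of values per library were not whole and were rounded. Another 213 columns of samples were not used here. Coordinates came from GENCODE 29 (GRCh38) and promoters from RefSeq (GRCh38.p14).

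All 57 libraries of the 19 groups with 3 replicates (19.31 to 29.62 M counts each) were fitted together with edgeR 4.0.16 (filterByExpr, TMM, quasi-likelihood test, 38 residual degrees of freedom), with Benjamini-Hochberg adjustment over all 16445 tested genes. Replicates of the 6 high-dose libraries correlated at 0.9895 to 0.9912 and differed beyond sampling noise. Alternatives were RLE scaling, no filter, the 18 libraries of the set, the compared libraries alone, a replicate block, each library left out, and DESeq2 1.42.0. The fitting was tested on simulated data. Replicate numbers were taken as pairing 2 groups where all 3 same-number correlations of deviations from the group means exceeded 0.1: this held for Ginseng high and low (0.13, 0.28 and 0.40) and for the medium doses of both extracts (0.26, 0.13 and 0.13), not for the other pairs compared. Members and lists were chosen with earlier results of these data known. The text names the 12 largest rises and 12 largest falls (at least 5 CPM, no overlap), up to 4 called members per list by size, further members for their role, and, in the closing section, genes chosen after their values were seen. Results of some genes are not reported here.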

Additional observations from a re-analysis of the deposited data

Results flagged for a closer look

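The effect of dose was tested for a difference between the extracts, as the change from low to high dose of Glycyrrhiza minus that of Ginseng, in edgeR's interaction test. It passed for 2126 genes. Of the 159 genes chosen to be named, 134 passed, a share that the choice itself raises, since most were picked for their difference and 29 after their values were seen. For 42 genes the dose effects passed in both extracts and had opposite signs. Of these, 27 rose with Glycyrrhiza and fell with Ginseng, and 15 fell with Glycyrrhiza and rose with Ginseng. Both dose effects are from edgeR's fit without the replicate block, and they were not followed gene by gene under the alternatives. The Ginseng dose effects of the 42 genes had adjusted p values in that fit from 7.1e-06 (PROX1) to 0.049 (PTPRH). Since the Ginseng dose count moved with the setting, as given below, opposite signs near the threshold are uncertain.

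CDKN1A rose by 0.91 with Glycyrrhiza and fell by 0.34 with Ginseng, a difference of 1.25, and VEGFA rose by 1.00 and fell by 0.13, a difference of 1.13. The FOXO-linked KLHL24 (0.86) and FBXO32, a muscle-type ubiquitin ligase subunit (0.70), went the same way. Genes of this kind that were chosen after their values were seen are SEC24D, a COPII coat subunit (1.39), the noncoding RNA UCA1 (1.35), BMF, a BH3-only death protein (1.10), PROX1, a homeobox factor (0.83), and COPB2, a COPI coat subunit (0.33). In the other direction were the stem cell receptor LGR5, with a difference of -0.49, and the chaperone HSP90AA1 with -0.25, as well as the cell-cycle phosphatase CDC25A (-0.50) and the retinaldehyde dehydrogenase ALDH1A1 (-0.50), both also chosen after their values were seen.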

How the results depend on the processing

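The count of 3830 genes for Glycyrrhiza high minus Ginseng high lay between 3171 and 4243 under every alternative. Of the 159 genes chosen to be named, 29 of them after their values were seen, 145 kept their side of the threshold under every alternative, and 14 crossed it under at least 1: ASCL2, NT5E, MT1A, UGT2B15, ZBTB45P1, CCN2, TEAD4, MVD, IDI1, IFI44, MKI67, BIRC5 and HOXB9, which lost it, and SEC23B, which gained it. No result reversed. Between the medium doses, where edgeR called 0 genes, 90 were called without the filter, 13 with the replicate block and 3 by DESeq2. Between the low doses the count of 0 became 145 without the filter, 1 with the compared libraries alone, 2 by DESeq2 and 0 to 1 with a library left out (1 without the third low-dose Glycyrrhiza library). The Ginseng dose count of 415 was 660 with the replicate block, 115 with the compared libraries alone and 205 to 420 with a library left out. The cause of these shifts was not tested. Between the high doses, libraries with the same number had deviations correlated at 0.23, 0.00 and -0.07 over 10701 genes, so the numbers did not pair these 6. With the replicate block 4243 genes were called between the high doses. Genes near 1 CPM, such as NUPR1 and MT1A, rest on few counts.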

Other observations

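Vesicle coats, laminins and integrins were not among the lists, and the groups here were formed by gene symbol after the values had been seen, so their counts are descriptions. Between the high doses, where 23.3% of all genes passed, 6 of 11 COPII coat genes were higher with Glycyrrhiza and none lower. SEC24D, which selects cargo at the endoplasmic reticulum, read 99.3, 94.3 and 99.5 CPM against 41.1, 40.7 and 35.9 CPM (1.32 ± 0.06). Of 9 COPI coat genes 6 were higher, COPA and COPG1 by 0.38, and COPG2 was lower. CREB3L2, a membrane-bound factor known to control secretory capacity, stood at 44.1, 46 and 41.9 CPM against 19.8, 17.5 and 19.6 CPM (1.21 ± 0.07). Laminin chains were higher in 5 of 8 cases, among them LAMA3 (0.57 ± 0.09), an epithelial alpha chain. Of 13 integrins 7 were higher and 2 lower, ITGA2 by 0.42 and ITGA3 by 0.44 against ITGA1 at -0.54. Of 13 keratins 6 were higher and 1, KRT17, was lower (-0.74).

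Of 27 HOX cluster genes 9 were lower with Glycyrrhiza and none higher (median -0.10), with HOXA13, the hindgut member, at 73.9, 73.2 and 73.5 CPM against 90.5, 91.1 and 96.1 CPM (-0.33 ± 0.04). Of 77 mitochondrial ribosomal protein genes 16.9% passed, and of 78 cytosolic ones 5.13%, both shares under that of all genes. Some single genes outside the lists also stood apart. The arginine pathway enzyme ASS1 read 33.7, 34 and 36.4 CPM against 13.6, 13.3 and 10.7 CPM (1.46 ± 0.08), and the amino acid carriers SLC1A4 (1.44 ± 0.07) and SLC38A2 (0.96 ± 0.05) were higher. Of epithelial transport genes, the water channel AQP3 was higher (0.93 ± 0.04), and the chloride-loading cotransporter SLC12A2 was lower (-0.76 ± 0.07). The oxidase NOX1 was also lower (-0.92 ± 0.16). The crypt transcription factor MYB was lower as well, at 31.7, 26.9 and 29 CPM against 43.2, 41.3 and 39.5 CPM (-0.50 ± 0.06).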
